A study of Rattus norvegicus with 46 samples.

Results

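The mitochondrial ribosome was followed through the probes for its protein subunits on Illumina rat BeadChips. Members were taken by name: every probe whose gene symbol in the deposited table begins with Mrpl or Mrps, the prefixes for proteins of the large and the small mitochondrial ribosomal subunit. This gave 56 probes, 1 for each of 56 genes, of 22517 probes and 21719 named genes on the array. Of these, 49 passed the detection filter, which asked for a detection p-value below 0.01 on 7 or more arrays, and were tested among 7183 genes. The rule for members used no measured value, but it was chosen with earlier results of these data known.

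The samples were heart muscle cells isolated from adult male wildtype Wistar rats and exposed to a single fatty acid at 0.4 mM over 24 h, carried on defatted bovine serum albumin (BSA). The 5 fatty acids were octanoate (8 arrays, spelled octonoeic acid in the labels), palmitate (8), stearate (8), oleate (8) and linoleate (7). Control cells (7 arrays) had 1% BSA alone, which the treated cells received too. Palmitate has a longer chain than octanoate, stearate a longer chain than palmitate, oleate 1 double bond where stearate has none, and linoleate 1 double bond more than oleate. Nothing in the labels tells if replicates came from separate rats or cultures. The p-values therefore cover the spread among these arrays alone, and part or all of that spread may be technical.

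Mitochondria carry their own ribosome, which translates the few messenger RNAs of the mitochondrial genome, all of them for subunits of the respiratory chain and ATP synthase. Its RNA is made in the organelle, but its proteins are encoded in the nucleus, made in the cytosol and imported. Some descend from bacterial ribosomal proteins, while others have no bacterial counterpart. Heart muscle is rich in mitochondria and burns fatty acids as a main fuel.

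Detected probes per array ranged from 3090 to 7886 and detected members from 41 to 51. An array's signal range (its 95th percentile of signal over its median) averaged 11.1 ± 4.36 under octanoate, 10.8 ± 3.60 under palmitate, 9.30 ± 4.64 under stearate, 11.9 ± 4.59 under oleate, 9.73 ± 4.24 under linoleate and 13.5 ± 1.78 in control (SD). Of 8 heart muscle cell markers 7 were detected on at least 50% of the arrays of every group, and Actc1 in no group. No endothelial marker (of 3 on the array) was detected on that share of any group's arrays. Of 6 fibroblast markers Col1a2 and Dcn were in every group and Postn under oleate. Of 4 leukocyte markers Cd68 was under octanoate, palmitate and oleate, and of 4 smooth muscle and pericyte markers Cspg4 was in every group but stearate.

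Of the 56 members, 40 were detected on all 46 arrays and 9 on fewer, of which Mrps26 was the weakest, with 23 arrays. Mrps15 was detected on 5 arrays, Mrpl14 on 4 and Mrps2 on 2, and Mrps31, Mrps21, Mrpl30 and Mrps10 on none. Those 7 have no level of their own here and entered no test. The gene listed as Mrps36 is now named Kgd4 and is known as a subunit of the 2-oxoglutarate dehydrogenase complex. It is kept as a member because the symbol meets the rule, and it is left out of the counts by subunit. The tested members of the ribosome proper were 33 of the large and 15 of the small subunit. Mrps30 and Mrps18a counted with the large subunit, where they are known to sit. The array also held 16 tested mitochondrial ribosomal proteins under other symbols, described further down.

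Windows of 300 bases around the annotated gene starts (250 before and 50 after, RefSeq, build GRCr8) were at hand for 47 members, with 48 windows. A motif was counted on either strand, and a match is a description of letters, not a binding site. The ETS motif CCGGAAG, the core letters bound by GABP (NRF-2), stood in 33.3% of members' windows, against 20.0% of 5495 windows of other genes tested and 8.75% of all 33469 windows. The YY1 motif AAGATGGC, which holds an ATG, stood in 29.2%, against 5.88% and 3.17%. The NRF-1 core GCATGCGC stood in 10.4%, against 5.75% and 2.47%. The Sp1 motif GGGCGG stood in 50%, against 62.0% and 33.1%. The CCAAT box was in 43.8% of members' windows, against 38.0% and 37.5%, and the TATA box TATAAA in 12.5%, against 7.42% and 14.2%. None of these differences was tested. The median GC content of members' windows was 56%, against 51.7% over all windows.

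**Figure D1:**
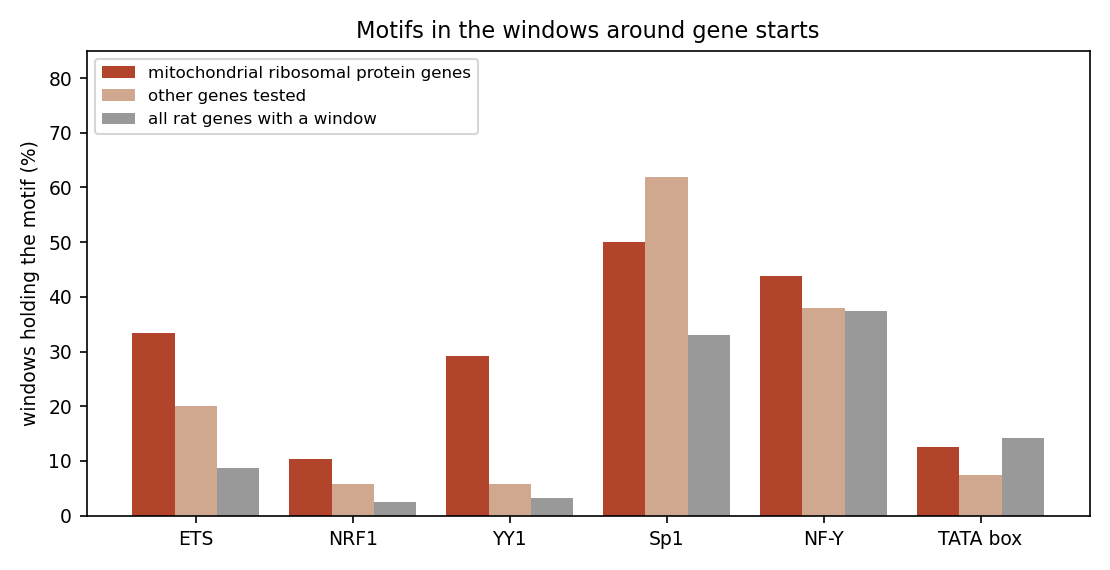
Share of windows (y axis, percent) that hold each motif (x axis; NF-Y binds the CCAAT box), for 48 windows of mitochondrial ribosomal protein genes, 5495 of other genes tested and 33469 of all rat genes. The ETS share is 33.3% in the members and 20.0% in other genes tested, and the YY1 share is 29.2% and 5.88%.

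The windows of 3 members are shown in the gene's direction with motif matches in capitals. They were taken for Mrpl18, which fell under 3 fatty acids, Mrps27, whose octanoate arrays all lay below the control arrays, and Mrps7, called under palmitate. Mrpl18 starts in chr1:50384702-50385001 (plus strand), Mrps27 in chr2:32473954-32474253 (plus strand) and Mrps7 in chr10:101342392-101342691 (plus strand).
Mrpl18: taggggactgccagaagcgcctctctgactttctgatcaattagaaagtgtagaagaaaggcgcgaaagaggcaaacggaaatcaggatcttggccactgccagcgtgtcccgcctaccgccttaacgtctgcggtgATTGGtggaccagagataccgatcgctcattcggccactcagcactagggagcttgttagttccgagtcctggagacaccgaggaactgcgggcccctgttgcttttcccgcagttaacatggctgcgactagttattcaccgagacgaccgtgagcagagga
Mrps27: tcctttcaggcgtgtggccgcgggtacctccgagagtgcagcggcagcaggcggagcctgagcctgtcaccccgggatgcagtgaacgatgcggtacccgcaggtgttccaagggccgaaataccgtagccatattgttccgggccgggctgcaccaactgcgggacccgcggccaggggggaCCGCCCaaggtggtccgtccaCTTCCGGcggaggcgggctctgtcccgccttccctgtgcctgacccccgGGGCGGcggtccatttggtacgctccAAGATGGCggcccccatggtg
Mrps7: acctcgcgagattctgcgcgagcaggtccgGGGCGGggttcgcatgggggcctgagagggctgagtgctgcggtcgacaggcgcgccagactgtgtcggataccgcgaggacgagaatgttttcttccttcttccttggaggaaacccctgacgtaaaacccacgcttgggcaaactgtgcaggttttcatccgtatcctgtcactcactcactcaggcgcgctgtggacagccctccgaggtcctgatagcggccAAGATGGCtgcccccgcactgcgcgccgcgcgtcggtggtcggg
Of the motifs searched, the Mrpl18 window held a CCAAT box on the reverse strand. The Mrps27 window held 2 Sp1 motifs, 1 ETS motif on the reverse strand and 1 YY1 motif that begins at base 30. The Mrps7 window held 1 Sp1 motif and 1 YY1 motif that begins at base 7. Of the 6 members that the F test called (described further down), 5 had a window. Those of Mrps33 and Mrps36 are not shown: the first held none of the motifs searched and the second Sp1 motifs alone.

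Of the members, 15 start head to head with another gene within 1000 bases. Mrpl18 lies 425 bases from Tcp1, a cytosolic chaperonin subunit, and Mrpl46 lies 234 bases from Mrps11, another mitochondrial ribosomal protein. Mrpl47 lies 244 bases from Ndufb5, of respiratory complex I, and Mrpl49 lies 186 bases from Fau, of the cytosolic ribosome. Of 8 neighbours tested, 1 was called against control (limma, Benjamini-Hochberg adjusted): Mrps11 under octanoate, with a log2 change of -0.62 ± 0.18 (SE, adjusted p = 0.00761), beside -0.21 ± 0.20 for its neighbour Mrpl46 (adjusted p = 0.483). In that comparison 13.1% of all genes tested were called lower and 11.6% higher. Tcp1 changed by 0.02 ± 0.22 under palmitate on the log2 scale (adjusted p = 0.967), where Mrpl18 was lowest.

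Under octanoate 9 of the 49 tested members were lower than in control and none was higher; 13.1% of all genes tested were called lower and 11.6% higher. Under palmitate 7 members were lower and none was higher, against 5.76% and 5.3% of all genes. Under stearate Mrpl18 alone was lower, against 8.91% of all genes, and none was higher, against 4.19%. Under oleate and linoleate no member was called; over all genes 0.571% and 0.473% were. The calls rest on limma with Benjamini-Hochberg adjustment over all genes within each comparison at 0.05. At an unadjusted p under 0.05, 15 members were lower and 1 higher under octanoate, against 18.7% and 17% of all genes, and 10 lower and 0 higher under palmitate, against 14.1% and 11.3%. At that threshold 2 were lower under stearate (17.1% of all genes), 2 lower and 1 higher under oleate (2.67% and 1.57%), and 3 lower and 1 higher under linoleate (3.91% and 3.02%). Any difference between the 6 groups (F test) was called for 6 members, Mrpl18, Mrps27, Mrps36, Mrps35, Mrps7 and Mrps33, which is 12.2% of those tested; of all genes 28.7% were called. With median scaling of whole arrays the members called lower under octanoate, palmitate and stearate were 0, 2 and 9, against 4.86%, 1.85% and 25.5% of all genes. Without the arrays numbered 4 and 7 they were 5, 1 and 0, against 8.51%, 1.61% and 6.58%.

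The members' means lay below the control mean for 42 of 49 under octanoate, with a median log2 change of -0.27, where 52.1% of all genes lay below and the median was -0.02. Under palmitate 41 of 49 lay below (median -0.28; all genes 53.5% and -0.03). Under stearate 24 of 49 lay below (median 0.00; all genes 56.2% and -0.06), and 49 of 49 under median scaling of whole arrays (median -0.64, all genes -0.49). Under oleate 35 lay below (median -0.10; all genes 52.8% and -0.01) and under linoleate 31 (median -0.06; all genes 53.5% and -0.02). Under median scaling of whole arrays 42 lay below under oleate (median -0.26, all genes -0.10) and 46 under linoleate (median -0.37, all genes -0.22), and the medians under octanoate and palmitate were -0.27 and -0.41 (all genes -0.02 and -0.13). These 5 comparisons share the control arrays. In whole-cell RNA, less RNA per cell and fewer cells of a type cannot be told apart. The heart muscle markers moved alongside: the mean of 7 of 7 lay below control under octanoate, with Tnnt2 and Pln called lower, and so did 7 of 7 under palmitate, with Myl2 called lower, 7 of 7 under oleate and 6 of 7 under linoleate, with none called. Their summed normalized level ran from 111568 to 136403 under octanoate, from 116088 to 160284 under palmitate, and from 148585 to 175564 in control. Under stearate it ran from 146702 to 210542, with 3 of 7 marker means below control. The leukocyte marker Cd68 was higher under octanoate, at 1.22 ± 0.22 (SE, limma adjusted p = 7.38e-05), where it was detected on 8 of 8 octanoate and 1 of 7 control arrays, and under palmitate, at 0.70 ± 0.22 (adjusted p = 0.0328). Cd14, the other leukocyte marker tested, changed by -0.07 ± 0.19 under octanoate (adjusted p = 0.833) and by -0.35 ± 0.19 under palmitate (adjusted p = 0.228), neither called. The 4 leukocyte markers on the array, Cd68 among them, summed to 308 to 451 under octanoate, 242 to 373 under palmitate and 228 to 304 in control. Cspg4, a pericyte marker, was lower under palmitate, at -1.02 ± 0.32 (adjusted p = 0.0307), and under stearate, at -2.12 ± 0.32 (adjusted p = 8.76e-06). The 4 smooth muscle and pericyte markers summed to 298 to 431 under palmitate, 216 to 462 under stearate and 371 to 1118 in control. The fibroblast marker Dcn was lower under stearate, at -1.14 ± 0.39 (adjusted p = 0.0461). The 6 fibroblast markers summed to 1384 to 4674 under stearate and 2037 to 7811 in control. The part of the markers, of the signal range or of array quality in the members' change was not tested.

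**Figure D2:**
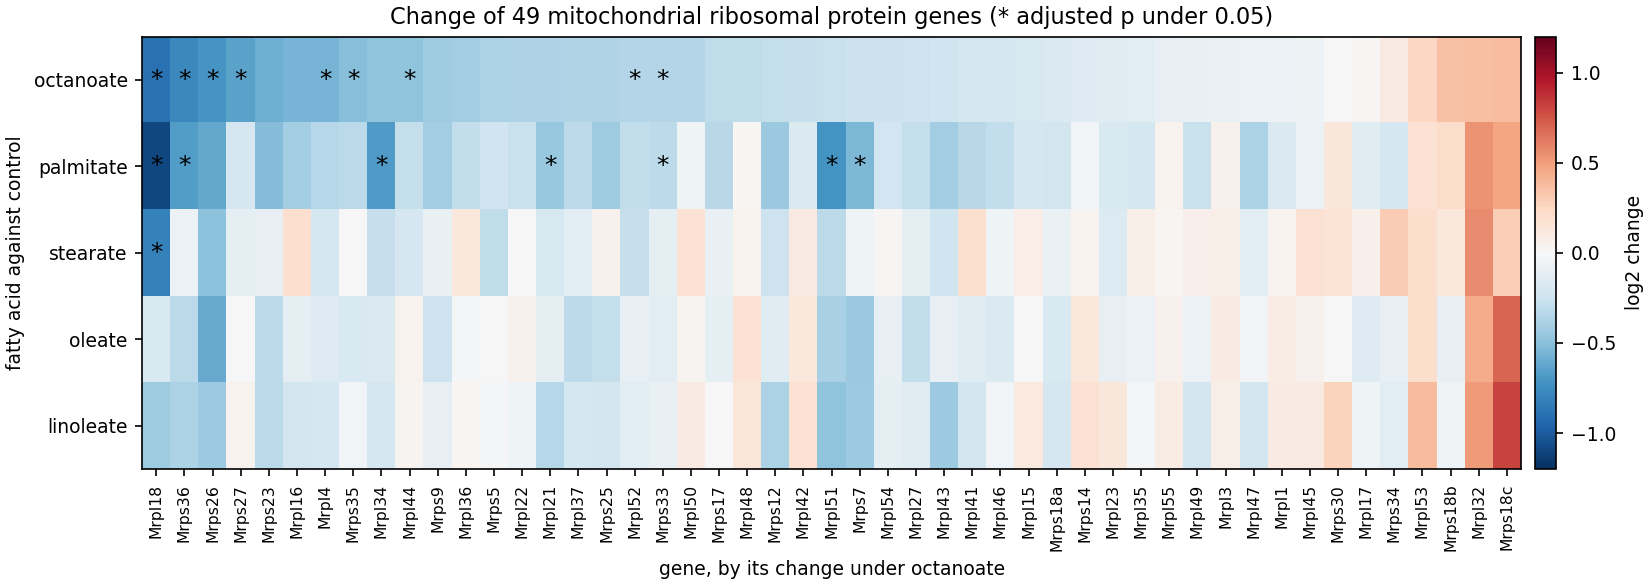
Log2 change against control of the 49 tested members (x axis, ordered by the change under octanoate) for each fatty acid (y axis); blue is lower than control and red higher, and a star marks an adjusted p under 0.05. The starred genes are 9 under octanoate, 7 under palmitate and Mrpl18 under stearate, all of them lower.

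By subunit, 4 of 33 large subunit members and 4 of 15 small subunit members were lower under octanoate, against 13.1% of all genes, with median log2 changes of -0.24 and -0.35. Under palmitate the counts were 4 of 33 and 2 of 15, against 5.76% of all genes, with medians of -0.26 and -0.33. Under stearate they were 1 of 33 and 0 of 15, against 8.91%. By descent, 2 of 24 members with a bacterial homologue and 6 of 24 without one were lower under octanoate, and the medians were -0.25 and -0.27. Under palmitate the counts were 4 and 2, and both medians were -0.27. The differences between these groups were not tested. The F test called 1 of 33 large and 4 of 15 small subunit members, against 28.7% of all genes.

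**Figure D3:**
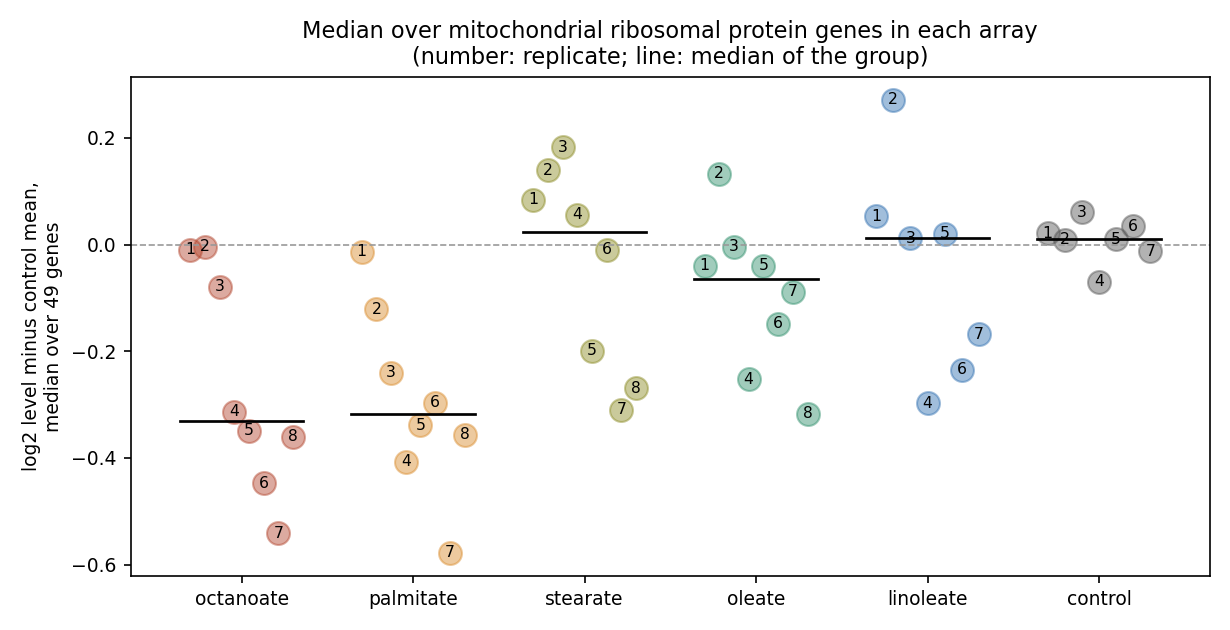
For each array, the median over the 49 members of the log2 level minus the member's control mean (y axis), by group (x axis); the number in a point is the replicate and the line the median of the group. Octanoate arrays run from -0.54 to 0.00 and palmitate arrays from -0.58 to -0.01, while control arrays lie between -0.07 and 0.06.

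Taking each array's median over the 49 members, relative to the control means, octanoate arrays ran from -0.54 to 0.00 on the log2 scale (median -0.33) and palmitate arrays from -0.58 to -0.01 (median -0.32). Stearate arrays ran from -0.31 to 0.18 (median 0.02), oleate arrays from -0.32 to 0.13 (median -0.06), linoleate arrays from -0.30 to 0.27 (median 0.01) and control arrays from -0.07 to 0.06 (median 0.01). By this median the fatty acid groups were wider than control. Single members went either way. The SD of Mrpl18 was 0.64 in control and 0.31 to 0.43 in the fatty acid groups, and that of Mrpl45 was 0.13 and 0.16 to 0.30. All 6 arrays numbered 2 and all 6 numbered 3 lay above their group mean, and 5 of 6 numbered 1. Of the arrays numbered 4, 6 and 7, 1 of 6 each lay above, and of 4 arrays numbered 8, 0. The labels give these numbers no meaning. Over all genes, arrays of the same number deviated together in palmitate and octanoate, stearate and palmitate, and oleate and stearate (r above 0.1 in 8 of 8 pairs each), so block values stand beside those pairs. The block was fitted over all 46 arrays. These include control and linoleate, whose pairs did not all reach that correlation.

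Mrpl18, a large subunit protein with a bacterial homologue, fell under 3 fatty acids. The lowest, median and highest Mrpl18 log2 normalized intensities were 8.39, 8.83 and 9.40 under octanoate, 8.04, 8.48 and 9.22 under palmitate and 8.44, 8.77 and 9.47 under stearate. They were 9.13, 9.48 and 10.04 under oleate, 8.61, 9.36 and 9.85 under linoleate and 8.77, 9.74 and 10.54 in control. The control arrays were spread widely and overlapped every fatty acid group. The log2 change was -0.89 ± 0.22 under octanoate (SE, limma adjusted p = 0.00212), -1.10 ± 0.22 under palmitate (adjusted p = 0.000704) and -0.81 ± 0.22 under stearate (adjusted p = 0.0106). As folds these were 1.86, 2.14 and 1.75 lower. Under linoleate the change was -0.43 ± 0.23 (adjusted p = 0.764) and under oleate -0.18 ± 0.22, neither called. Against octanoate, palmitate differed by -0.20 ± 0.21 (95% interval -0.63 to 0.22), and against palmitate, stearate differed by 0.28 ± 0.21 (-0.14 to 0.71), both not called. The stearate call was lost without the arrays numbered 4 and 7, at -0.63 (adjusted p = 0.0869), and in a fit of stearate and control alone (adjusted p = 0.0526). Under median scaling of whole arrays the octanoate call was lost, at -0.94 (adjusted p = 0.0849). With each array left out in turn, the calls under octanoate, palmitate and stearate held, with adjusted p-values up to 0.0113, 0.00419 and 0.0464.

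**Figure D4:**
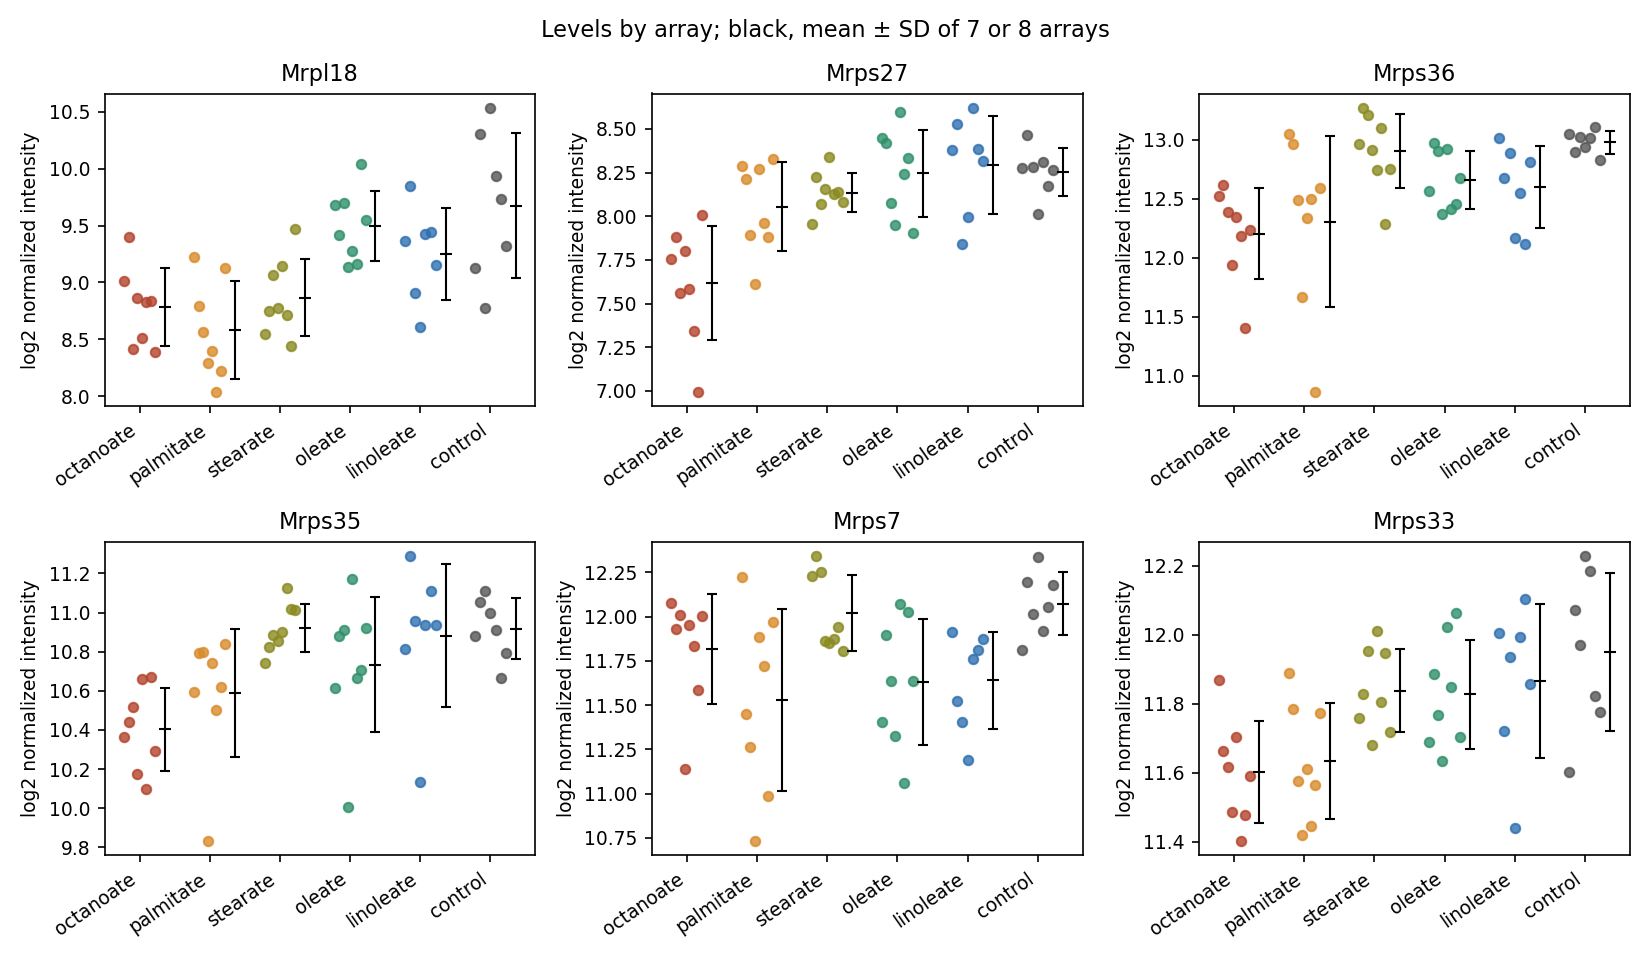
Log2 normalized intensity in each array (y axis) of the 6 members called for any difference between the groups (x axis), with the mean ± SD beside the points. Mrpl18 is low under octanoate, palmitate and stearate, and every octanoate array of Mrps27 and of Mrps36 lies below every control array.

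Mrps27, a small subunit protein of the pentatricopeptide repeat family with no bacterial homologue, was called lower under octanoate. Its lowest, median and highest log2 levels were 6.99, 7.67 and 8.01 under octanoate, 7.61, 8.09 and 8.33 under palmitate and 7.96, 8.13 and 8.34 under stearate. They were 7.91, 8.29 and 8.60 under oleate, 7.84, 8.38 and 8.62 under linoleate and 8.01, 8.28 and 8.47 in control. All 8 octanoate arrays lay below all 7 control arrays, but narrowly. The nearest were octanoate replicate 8 at 8.009 and control replicate 4 at 8.015. Members without overlap in that comparison were Mrps27 and Mrps36, 2 of 49, against 6.36% of all genes. The log2 change under octanoate was -0.64 ± 0.15 (SE, limma adjusted p = 0.00107). Under palmitate it was -0.20 ± 0.15 (adjusted p = 0.416), and under the other 3 fatty acids it lay between -0.12 and 0.04. Under median scaling of whole arrays the octanoate change was -0.60 and not called (adjusted p = 0.238). The direct comparison of palmitate with octanoate gave 0.44 ± 0.14 (95% interval 0.15 to 0.72), which was not called (adjusted p = 0.0982) but was with the replicate number as a block (adjusted p = 0.0329). That block called Mrps27 alone of the members there, against 3.52% of all genes called higher.

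Mrps36 (now Kgd4) was lower under octanoate and palmitate. Its lowest, median and highest log2 levels were 11.41, 12.29 and 12.62 under octanoate, 10.86, 12.49 and 13.05 under palmitate and 12.29, 12.94 and 13.27 under stearate. They were 12.37, 12.62 and 12.98 under oleate, 12.11, 12.67 and 13.01 under linoleate and 12.83, 13.02 and 13.11 in control. The control arrays were tight, between 12.83 and 13.11, and above all octanoate arrays, while palmitate arrays spread over more than any other group. The log2 change was -0.78 ± 0.21 under octanoate (SE, limma adjusted p = 0.00428) and -0.67 ± 0.21 under palmitate (adjusted p = 0.0269). The palmitate call was lost without palmitate replicate 4 or without palmitate replicate 7, where the change was smallest at -0.47. Under stearate the change was -0.07 ± 0.21 (adjusted p = 0.867). Stearate against palmitate gave 0.60 ± 0.20 (95% interval 0.20 to 1.00, adjusted p = 0.0776), and with the replicate number as a block this was called (adjusted p = 0.0113).

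Mrps35 and Mrps33, small subunit proteins with no bacterial homologue, were lower under octanoate, and Mrps33 under palmitate as well. Mrps35 had lowest, median and highest log2 levels of 10.10, 10.40 and 10.67 under octanoate, 9.83, 10.68 and 10.84 under palmitate and 10.74, 10.89 and 11.13 under stearate. They were 10.00, 10.79 and 11.17 under oleate, 10.13, 10.94 and 11.29 under linoleate and 10.66, 10.91 and 11.11 in control. Palmitate replicate 4, oleate replicate 4 and linoleate replicate 4 were the lowest arrays of their groups. The log2 change of Mrps35 was -0.51 ± 0.15 under octanoate (SE, limma adjusted p = 0.00909) and -0.33 ± 0.15 under palmitate (adjusted p = 0.155). Mrps33 had lowest, median and highest log2 levels of 11.40, 11.60 and 11.87 under octanoate, 11.42, 11.59 and 11.89 under palmitate and 11.68, 11.82 and 12.01 under stearate. They were 11.63, 11.81 and 12.06 under oleate, 11.44, 11.94 and 12.10 under linoleate and 11.60, 11.97 and 12.23 in control. The medians under octanoate and palmitate lay below the lowest control array, replicate 1 at 11.60, or level with it, and the groups overlapped. The log2 change of Mrps33 was -0.35 ± 0.11 under octanoate (SE, limma adjusted p = 0.0138) and -0.32 ± 0.11 under palmitate (adjusted p = 0.0472). The Mrps33 call under palmitate was lost when any of 9 single arrays was left out.

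Mrps7, a small subunit protein with a bacterial homologue that binds the ribosomal RNA, was called under palmitate. Its lowest, median and highest log2 levels were 11.14, 11.94 and 12.08 under octanoate, 10.73, 11.59 and 12.23 under palmitate and 11.80, 11.91 and 12.34 under stearate. They were 11.06, 11.64 and 12.07 under oleate, 11.19, 11.76 and 11.91 under linoleate and 11.81, 12.05 and 12.34 in control. Stearate and control arrays covered nearly the same span, and the lowest arrays were palmitate replicates 4 and 7, oleate replicate 6 and octanoate replicate 4. The log2 change was -0.54 ± 0.17 under palmitate (SE, limma adjusted p = 0.0336), -0.26 ± 0.17 under octanoate (adjusted p = 0.295) and -0.05 ± 0.17 under stearate. Under oleate it was -0.44 ± 0.17 (adjusted p = 0.702) and under linoleate -0.43 ± 0.18 (adjusted p = 0.612), with the smallest p-value of the members under oleate, yet no call. Stearate against palmitate gave 0.49 ± 0.17 (95% interval 0.15 to 0.83, adjusted p = 0.0884), called with the replicate number as a block (adjusted p = 0.0367). Oleate against stearate gave -0.39 ± 0.17 (adjusted p = 0.159), also not called with the block (adjusted p = 0.0872). Its sign turned to 0.04 under median scaling of whole arrays. The palmitate call of Mrps7 was lost when any of 6 single arrays was left out.

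Mrps26 and Mrpl52 have no bacterial homologue and belong to the small and the large subunit. Mrps26 had lowest, median and highest log2 levels of 5.79, 6.70 and 7.20 under octanoate, 6.02, 6.90 and 7.05 under palmitate and 5.85, 6.84 and 7.62 under stearate. They were 5.97, 6.65 and 7.36 under oleate, 6.29, 6.75 and 7.63 under linoleate and 6.83, 7.29 and 7.82 in control. This probe was near the detection limit, above background on 4 of 8 octanoate, 2 of 8 palmitate, 4 of 8 stearate, 5 of 8 oleate, 3 of 7 linoleate and 5 of 7 control arrays. The log2 change of Mrps26 was -0.71 ± 0.25 under octanoate (SE, limma adjusted p = 0.0294), -0.62 ± 0.25 under palmitate (adjusted p = 0.0968) and -0.60 ± 0.25 under oleate (adjusted p = 0.813). Mrpl52 had lowest, median and highest log2 levels of 11.84, 12.21 and 12.63 under octanoate, 11.94, 12.36 and 12.60 under palmitate and 12.05, 12.36 and 12.54 under stearate. They were 12.04, 12.51 and 12.86 under oleate, 11.83, 12.47 and 12.76 under linoleate and 12.31, 12.57 and 12.88 in control. The 5 fatty acid groups all overlapped control. The log2 change of Mrpl52 was -0.35 ± 0.13 under octanoate (SE, limma adjusted p = 0.0491), -0.29 ± 0.13 under palmitate (adjusted p = 0.154) and -0.28 ± 0.13 under stearate (adjusted p = 0.179). The Mrpl52 call was lost when any of 11 single arrays was left out, and that of Mrps26 without control replicate 2 or 3 or octanoate replicate 6 or 7.

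The remaining calls under octanoate were Mrpl4, a bacterial-type large subunit protein, and Mrpl44, a large subunit protein with a ribonuclease III-like domain. Mrpl4 averaged 11.04 ± 0.33 under octanoate (SD, n = 8) and 11.59 ± 0.28 in control (n = 7), a log2 change of -0.56 (limma adjusted p = 0.022). That call was lost without control replicate 7 or octanoate replicate 7. Mrpl44 averaged 8.17 ± 0.36 under octanoate and 8.65 ± 0.28 in control, a log2 change of -0.48 (adjusted p = 0.0465), and it was lost when any of 10 single arrays was left out. The remaining calls under palmitate were all of the large subunit: Mrpl51, without a bacterial homologue, and Mrpl34 and Mrpl21, with one. Mrpl51 averaged 8.78 ± 0.37 under palmitate (SD, n = 8) and 9.50 ± 0.56 in control (n = 7), a log2 change of -0.71 (limma adjusted p = 0.0246). Mrpl34 averaged 8.81 ± 0.36 under palmitate and 9.49 ± 0.27 in control, a change of -0.68 (adjusted p = 0.0418). Mrpl21 averaged 10.72 ± 0.22 under palmitate and 11.17 ± 0.27 in control, a change of -0.45 (adjusted p = 0.0327). The Mrpl34 call was lost when any of 10 single arrays was left out, that of Mrpl21 when any of 6 was, and that of Mrpl51 without control replicate 2 or 4 or palmitate replicate 4. The groups overlapped for all 5 genes. Leaving out any of 6 single arrays (control replicate 2, 4 or 7, or palmitate replicate 4, 6 or 7) lowered the palmitate count of 7 by over 1.5 times, to as few as 1, and the Mrpl18 call held each time. The octanoate count was 5 without octanoate replicate 7.

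Under linoleate the smallest p-values among the members were those of Mrps18c, 1 of the small subunit proteins of the bacterial S18 family, and Mrps7. Mrps18c averaged 10.16 ± 0.43 under linoleate (SD, n = 7) and 9.35 ± 0.99 in control (n = 7), a log2 change of 0.81 that was not called (limma adjusted p = 0.612). Its control arrays ran from 8.14 to 10.72 and enclosed all linoleate arrays. The interval that 95% confidence gives a member's log2 change reached a median of 0.43 to either side against control (0.44 for linoleate), wider than the octanoate median of -0.27.

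Between fatty acids at the same dose and time, 4 pairs were compared, and no member was called in any of them with all arrays, quantile normalization and no further term. Other settings called members in stearate against palmitate (Mrpl41 and Mrps25 with the signal range as a covariate) and in oleate against stearate (Mrpl18 and Mrps5 with median scaling of whole arrays, Mrpl41 and Mrps5 with the covariate, and Mrpl18 with median scaling over probes detected on all arrays). Palmitate against octanoate, a longer chain, had 24 of 49 members lower, with a median log2 difference of 0.01, and under median scaling of whole arrays 36 were lower (median -0.11, all genes -0.12). At an unadjusted p under 0.05 Mrps27 was higher and Mrpl51 lower, with -0.44 ± 0.21 (SE, limma adjusted p = 0.345). At that threshold 6.08% of all genes were higher and 6.58% lower, and after adjustment 2.23% were called. Stearate against palmitate, a chain longer still, had 45 of 49 members higher with a median of 0.24, while all genes had a median of -0.05; under median scaling of whole arrays 44 of 49 were lower with a median of -0.26, and all genes had a median of -0.39. At an unadjusted p under 0.05, 7 of 49 members were higher and 0 lower there, against 8.37% and 11.6% of all genes at the same threshold. After adjustment 1.1% of all genes were called higher and 3.08% lower. With the replicate number as a block 4 members were called higher in stearate, Mrpl41, Mrps25, Mrps36 and Mrps7, against 3.87% of all genes called higher.

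Oleate against stearate, the addition of 1 double bond, had 29 of 49 members lower (median -0.08, all genes 0.05), and under median scaling of whole arrays none was lower (median 0.42, all genes 0.41). The smallest p-value was that of Mrpl18, with 0.63 ± 0.21 (SE, 95% interval 0.20 to 1.06, limma adjusted p = 0.0595); with the replicate number as a block it was called (adjusted p = 0.0347). Over all genes 6.92% were called in that pair, and 9.34% were called higher with the block. Linoleate against oleate, a further double bond, had 22 of 49 members lower (median 0.03) and under median scaling of whole arrays 44 (median -0.12, all genes -0.12). No member reached an unadjusted p of 0.05, and over all genes 0% were called. The smallest p-values were those of Mrpl21, with -0.24 (95% interval -0.53 to 0.05), and Mrpl43, a large subunit protein without a bacterial homologue, with -0.34 (-0.78 to 0.11). A missed threshold does not show that these fatty acids act alike, since the intervals reached a median of 0.41 to 0.43 to either side.

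The cytosolic ribosome, which makes the proteins of the mitochondrial one, offers a second list of ribosomal proteins on the same arrays. Of 66 cytosolic ribosomal protein genes tested, 13 had a mean below control under octanoate, with a median log2 change of 0.17. The mitochondrial list had 42 of 49 and -0.27, and all genes 52.1% and -0.02. Under palmitate 19 of 66 lay below (median 0.07), under stearate 25 (0.06), under oleate 22 (0.08) and under linoleate 16 (0.10). Of all genes 53.5%, 56.2%, 52.8% and 53.5% lay below, in the same order. The calls against control were few: under octanoate Rpl3 was higher, at 1.05 ± 0.18 (SE, limma adjusted p = 2.35e-05), and Rps16 lower, at -0.63 ± 0.18 (adjusted p = 0.0093), and under palmitate Rpl3 was higher. Of all genes 11.6% were called higher and 13.1% lower under octanoate, and 5.3% and 5.76% under palmitate. The cytosolic list was read with quantile normalization only. The difference between the lists was not tested.

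**Figure D5:**
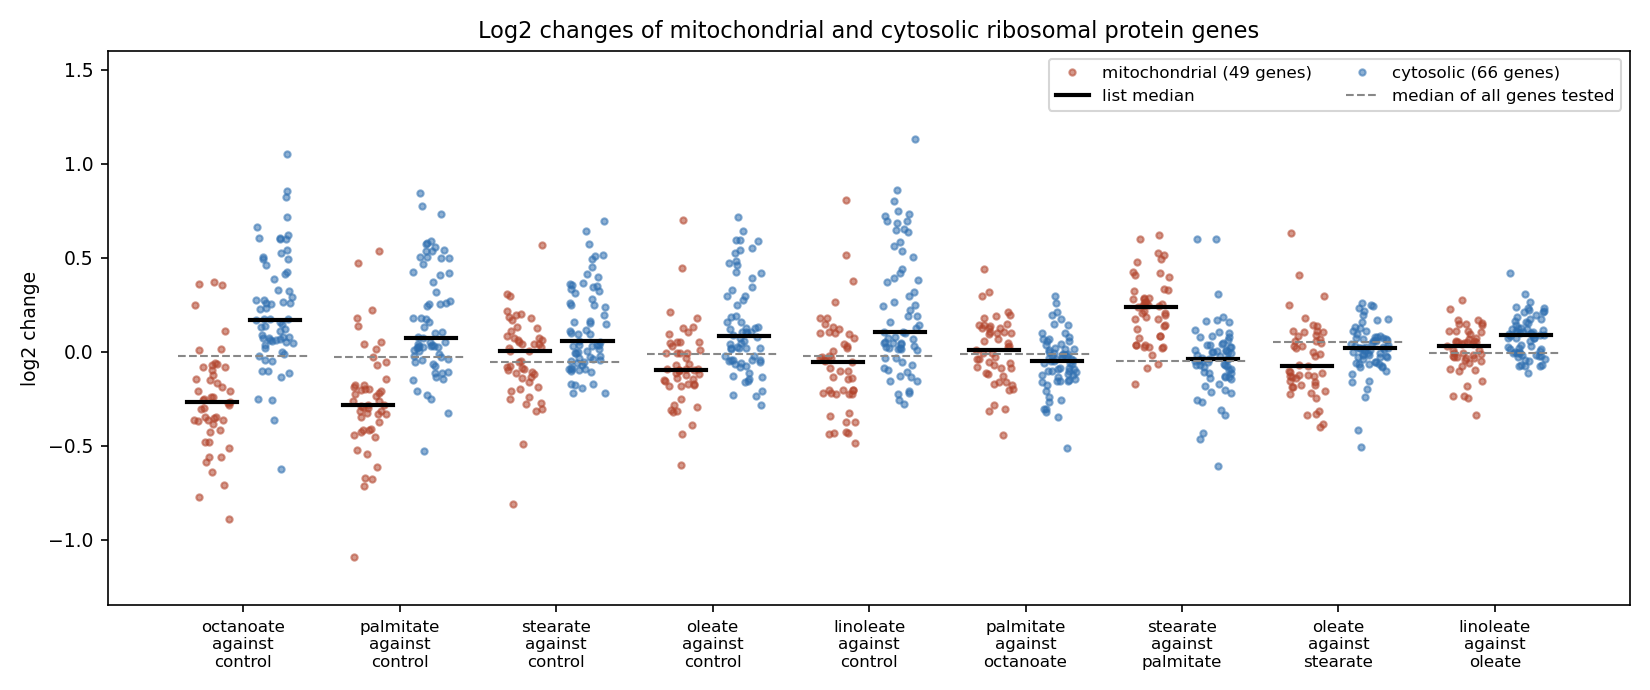
Log2 change of each mitochondrial (red, 49 genes) and cytosolic (blue, 66 genes) ribosomal protein gene in the 9 comparisons (x axis), with list medians as black lines and the median of all genes tested dashed. Under octanoate the list medians are -0.27 and 0.17; in stearate against palmitate the mitochondrial median is 0.24, and -0.26 under median scaling of whole arrays.

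The 16 tested mitochondrial ribosomal proteins that the prefix does not catch gave 5 lower and 0 higher under octanoate and 6 lower and 0 higher under palmitate, with medians of -0.32 and -0.42. Of all genes, 13.1% were lower and 11.6% higher under octanoate, and 5.76% and 5.3% under palmitate. The F test called 9 of the 16, against 28.7% of all genes. Under octanoate the smallest adjusted p-values were those of Mrps24, a small subunit protein, at -0.88 ± 0.14 (SE, limma adjusted p = 1.05e-05), and Mrpl13, of the large subunit, at -0.71 ± 0.17 (adjusted p = 0.00166). Mrps24 averaged 11.03 ± 0.31 under octanoate (SD, n = 8) and 11.91 ± 0.10 in control (n = 7), with no overlap of the arrays, as for 6.36% of all genes. Under palmitate they were mrpl11, as the file spells it, of the large subunit, at -0.66 ± 0.15 (SE, adjusted p = 0.00206), and Dap3, the GTP-binding protein of the small subunit, at -0.41 ± 0.12 (adjusted p = 0.0169). Gadd45gip1, a large subunit protein, was lower under octanoate, palmitate and stearate. Under stearate it was the only 1 called, at -0.48 ± 0.16 (adjusted p = 0.0416), against 8.91% of all genes called lower. Stearate against palmitate called Mrpl19 higher, at 0.53 ± 0.14 (adjusted p = 0.0256), against 1.1% of all genes called higher.

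Factors that work with the mitochondrial ribosome were counted from lists of known genes. Of all genes tested, 13.1% were called lower and 11.6% higher under octanoate, 5.76% and 5.3% under palmitate, and 8.91% and 4.19% under stearate. Of 9 translation factors tested, 1 was lower under octanoate and under palmitate, Tufm, the mitochondrial elongation factor Tu, at -0.50 ± 0.13 (SE, limma adjusted p = 0.00343) and -0.47 ± 0.13 (adjusted p = 0.0144). Of 13 mitochondrial tRNA synthetases and amidotransferase subunits, 3 were lower under octanoate, 2 under palmitate and 2 under stearate, and none was higher. Cars2, the mitochondrial cysteinyl-tRNA synthetase, changed by -1.03 ± 0.17 under octanoate (adjusted p = 2.43e-05), where it was detected on 1 of 8 octanoate and 5 of 7 control arrays. Hars2, the mitochondrial histidyl-tRNA synthetase, changed by -0.80 ± 0.23 under octanoate (adjusted p = 0.00858) and by -0.89 ± 0.23 under palmitate (adjusted p = 0.00795). Under stearate Cars2 changed by -0.69 ± 0.17 (adjusted p = 0.00644) and Hars2 by -0.66 ± 0.23 (adjusted p = 0.0493).

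Of 16 assembly and ribosomal RNA modification factors, 3 were lower and 2 higher under octanoate, against 13.1% and 11.6% of all genes. Malsu1, an assembly factor of the large subunit, changed by -0.61 ± 0.15 (SE, limma adjusted p = 0.00254), and Fastkd2, which binds the large ribosomal RNA, by 0.73 ± 0.21 (adjusted p = 0.0067). All 8 octanoate arrays of Fastkd2 lay above all 7 control arrays, and for 6.36% of all genes these groups did not overlap. Under stearate 2 were lower, against 8.91% of all genes. They were the pseudouridine synthase Rpusd4, at -0.49 ± 0.13 (adjusted p = 0.01), and the RNA helicase Dhx30, at -0.58 ± 0.16 (adjusted p = 0.0119). Dhx30 was higher in oleate than in stearate, at 0.51 ± 0.15 (adjusted p = 0.0337). Of 18 genes for mitochondrial DNA maintenance and transcription, 3 were higher and 0 lower under octanoate, against 11.6% and 13.1% of all genes. They were the coactivator Pprc1, at 1.07 ± 0.33 (adjusted p = 0.0146), Twnk, the mitochondrial DNA helicase, at 0.89 ± 0.23 (adjusted p = 0.00319), and Trmt10c, a subunit of mitochondrial ribonuclease P, at 0.73 ± 0.21 (adjusted p = 0.00974). Under palmitate Twnk was higher, at 0.86 ± 0.23 (adjusted p = 0.00925), and Polrmt, the mitochondrial RNA polymerase, was lower, at -0.84 ± 0.23 (adjusted p = 0.0117). Polrmt was also lower under stearate, at -1.08 ± 0.23 (adjusted p = 0.00111), where it was detected on 4 of 8 arrays, and higher in oleate than in stearate, at 0.73 ± 0.22 (adjusted p = 0.031). The medians of this list were -0.03, -0.05 and 0.00 under octanoate, palmitate and stearate, beside -0.27, -0.28 and 0.00 for the members. The difference between the lists was not tested.

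Within groups the members did not vary as a unit. Over the 46 arrays, with group means removed, the 1176 pairs of members correlated from -0.85 to 0.92, with a median r of 0.17 and quartiles of -0.18 and 0.47. Mrpl32, a bacterial-type large subunit protein, and Mrps30 stood at 0.92, and Mrps18c and Mrps18a, of the same S18 family, at -0.85. Much of this followed the main axis of the arrays, the first principal component of all genes tested, which held 46.1% of the within-group variance and correlated at r = 0.72 with the log2 signal range. Of the members 18 correlated with that axis above 0.5 and 8 below -0.5, which is 53.1% of them, against 58.9% of all genes. At the ends were Mrpl32, at 0.89, and Mrpl16, at -0.90. Mrpl18 stood at -0.29, Mrps27 at -0.11 and Mrps36 at 0.04. The points share arrays and normalization, so these values describe the arrays. The median within-group SD of the members was 0.41 on the log2 scale, against 0.46 over all genes.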

How the data were processed

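RNA of 46 samples was hybridised to Illumina rat BeadChips with 50-base probes and 1 dye. The authors deposited for each probe and array the bead intensity without normalization, exported with BeadStudio version 3 per the submitters' processing notes, and a detection p-value per the file headers. A second deposited table of intensities held, as tested on its values, the same signals after quantile normalization on a linear scale, and served as an alternative.

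In R 4.3.3, limma 3.58.1 removed background by its normal-exponential model (fitted through the detection p-values, offset 16), after which arrays were quantile normalized and log2 values taken. Of 22517 probes 7312 were detected (detection p-value below 0.01) on 7 or more arrays. A gene with several such probes was read from its brightest on average (7183 genes). No member had several such probes. A model with 6 group means over all arrays and an intensity trend gave the 9 comparisons and the F test, two-sided, adjusted by Benjamini-Hochberg within each over all genes tested, at 0.05. The number of arrays limits the precision. Replicate numbers were taken to pair arrays where every pair's deviations from the group means correlated above 0.1, which held for palmitate with octanoate, stearate with palmitate and oleate with stearate.

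Named against control were up to 5 rises and 5 falls that passed, between fatty acids up to 3 each way, and otherwise the 2 smallest p-values; the further calls were named after their values were seen. The members and lists were chosen with earlier results of these data known. Names in current use and gene starts came from RefSeq GRCr8; 197 probes had no name. Alternatives were median scaling, skipping the background correction, testing without the detection filter, a replicate block, a fit of only the groups compared, the log2 signal range as a covariate, leaving out the arrays numbered 4 and 7, and the second table. Leaving out each array in turn and median scaling over probes detected on all arrays were added after the data were seen. The model was tested on simulated data.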

Additional observations from a re-analysis of the deposited data

Results flagged for a closer look

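Among 96 groups of arrays examined (15 named members and the median over the members, in 6 groups each), 4 had an array whose gap to its neighbour exceeded the 95% critical value of Dixon's test; chance flags about 1 in 20 groups. Mrps35 stood at 9.83 in palmitate replicate 4, where the next array was at 10.50, and at 10.13 in linoleate replicate 4, where the next was at 10.81. Mrpl4 stood at 10.62 in stearate replicate 7, where the next was at 11.25. Mrps18c stood at 9.24 in linoleate replicate 7, where the next was at 10.14. All are log2 levels, and each was the lowest of its group.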

How the results depend on the processing

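The members called were 9 under octanoate, 7 under palmitate, 1 under stearate and 6 by the F test. Of all genes 24.7%, 11.1%, 13.1% and 28.7% were called there. With median scaling of whole arrays the counts became 0, 2, 9 and 3, against 9.15%, 2.84%, 26% and 22.7% of all genes. That scaling also gave 2 in oleate against stearate, against 10.9%. Under that scaling the median of all genes was -0.49 under stearate, -0.13 under palmitate and 0.41 in oleate against stearate. With quantile normalization these medians were -0.06, -0.03 and 0.05. The scaling also turned Mrps7 in oleate against stearate to 0.0394. Without the detection filter the counts were 5, 1, 1 and 3, against 6.79%, 2.33%, 3.24% and 7.93% of all genes. Without the arrays numbered 4 and 7 they were 5, 1, 0 and 5, against 17.4%, 4.29%, 9.93% and 27.1%. With only the groups compared palmitate had 2 and stearate 0, against 9.94% and 8.73%. With the signal range as a covariate octanoate had 13 and palmitate 10, of which 1 each was higher, against 38.8% and 21.5% of all genes. Stearate then had 6, of which 2 were higher, the F test 12, stearate against palmitate 2 and oleate against stearate 2. Of all genes the covariate called 19.9%, 42.8%, 4.78% and 10% in these last 4, in the same order. Median scaling over probes detected on all arrays gave 1 in oleate against stearate, against 6.08% of all genes. It gave 8 under octanoate (1 higher), 5 under palmitate, 1 under stearate and 6 by the F test. Of all genes it called 25.4%, 11.4%, 10.6% and 27%. The members' medians were -0.21 under octanoate, -0.24 under palmitate, -0.002 under stearate and 0.21 in stearate against palmitate. Those of all genes were 0.05, 0.04, 0.15 and 0.08. With the replicate block, octanoate had 15, of which 1 was higher, and the F test 15. Palmitate against octanoate had 1, stearate against palmitate 4 and oleate against stearate 1. Of all genes the block called 35.4%, 45.6%, 5.68%, 11.3% and 13.9%, in the same order. Against control the arrays share only a number, since correlations there ran from -0.63 to 0.52. There the block moved palmitate to 10 and left stearate at 1, against 22.8% and 20.9% of all genes. No background correction and the second table kept every count within 1.5 times. With 1 array left out, counts ranged from 5 to 11 under octanoate, from 1 to 7 under palmitate, from 4 to 8 by the F test, from 0 to 1 in palmitate against octanoate, from 0 to 2 in stearate against palmitate and from 0 to 1 in oleate against stearate, and stayed at 1 under stearate and 0 in the other comparisons. The cause of these shifts was not tested. Detection limits what is known of the 7 untested members.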
